A study of Mus musculus with 12 samples.

Results

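The SERCA pumps and calcium buffers are 9 genes of calcium uptake and storage, followed here in the gastrocnemius and the quadriceps of the mouse hind limb after flight and on the ground. The genes were taken by name from 36008 gene identifiers, with earlier results of these data known. All 9 were measured: Atp2a1 and Atp2a2, Pln and Sln, Casq1, Casq2, Srl, Hrc and Pvalb. The 12 libraries came from 6 female mice, with both muscles taken from each, and fell into 4 groups of 3: ground gastrocnemius and ground quadriceps from mice M02, M03 and M08, flight gastrocnemius and flight quadriceps from mice M11, M12 and M20. All mice were 30 weeks old at the start, and flight lasted 9 weeks on the International Space Station while the ground controls lived in identical hardware at Kennedy Space Center. Both groups were the controls of an osteoporosis study and received injections of phosphate-buffered saline. The labels give the strain as C57BL/6 and the study's methods as BALB/c. Muscles of the left hind limb were dissected from thawed frozen carcasses, and whole muscle RNA was sequenced, so that a value is a sum over all fibers and other cells of the piece.

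A muscle fiber contracts when calcium leaves the sarcoplasmic reticulum and relaxes when SERCA pumps return it. SERCA1, the product of Atp2a1, is the pump of fast-twitch fibers. SERCA2, the product of Atp2a2, is found in slow-twitch fibers and the heart but is not limited to them. Phospholamban (Pln) and sarcolipin (Sln) are small membrane proteins that bind the pump and slow it, calsequestrin holds calcium inside the reticulum in a fast-fiber (Casq1) and a slow-fiber and cardiac (Casq2) form, sarcalumenin (Srl) and the histidine-rich calcium binding protein (Hrc) are further proteins of the lumen, and parvalbumin (Pvalb) binds calcium in the cytosol of fast fibers.

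The coding sequences of the pump regulators are shown because both regulators act by direct contact with the pump and are very short proteins. In the GENCODE vM21 annotation of GRCm38, the coding region of Pln (transcript Pln-201) lies within 1 exon on the forward strand at chr10:53343864-53344022, and that of Sln (Sln-201) within 1 exon on the forward strand at chr9:53853473-53853568. Pln has 52 codons before its stop and Sln has 31. In Pln the capitals mark codons 16 and 17, the serine and threonine at which phosphorylation relieves the block of the pump. In Sln they mark the last 5 codons before the stop, which encode the tail in the lumen.
Pln: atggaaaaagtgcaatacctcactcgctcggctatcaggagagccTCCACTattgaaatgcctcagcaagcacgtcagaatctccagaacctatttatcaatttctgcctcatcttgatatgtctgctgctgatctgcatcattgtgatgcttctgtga
Sln: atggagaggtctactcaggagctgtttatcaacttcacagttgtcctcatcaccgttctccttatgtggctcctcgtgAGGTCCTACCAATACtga

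The upstream regions of 4 fast-fiber or lumen genes are shown next, because these genes were positively correlated with each other over the 12 libraries. RefSeq windows on GRCm38.p6, from 250 bases before to 50 after a start site, matched 6 of the 9 genes; Atp2a2, Sln and Srl had no entry. Both strands were searched for CAGCTG, an E-box of the kind bound by myogenic factors, for TATAAA, and for the MEF2 site, and the capitals mark the matches. CAGCTG was held by 16.3% of 32851 windows, TATAAA by 13.6% and the MEF2 site by 3.19%. The windows are Atp2a1 at chr7:126463024-126463323, Casq1 at chr1:172219846-172220145 and Pvalb at chr15:78206351-78206650, all on the reverse strand, and Hrc at chr7:45335019-45335318 on the forward strand. CAGCTG began at position -55 from the start site in Atp2a1, at -195 in Casq1 and at -22 in Hrc, and the window at the start of Pvalb held a MEF2 site at -180. A second Pvalb window, at chr15:78204188-78204487, held none of the 3 and is not printed. The windows of Pln and Casq2 are not printed; Pln held CAGCTG at 8 and TATAAA at -219, and Casq2 a MEF2 site at -69. A match is a run of letters and was not tested as a bound site.
Atp2a1: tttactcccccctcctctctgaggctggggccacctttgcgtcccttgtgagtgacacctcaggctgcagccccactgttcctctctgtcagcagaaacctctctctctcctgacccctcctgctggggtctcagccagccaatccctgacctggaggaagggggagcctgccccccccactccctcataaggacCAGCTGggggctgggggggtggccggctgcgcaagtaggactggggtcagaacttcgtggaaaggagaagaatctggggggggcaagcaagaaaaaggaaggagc
Casq1: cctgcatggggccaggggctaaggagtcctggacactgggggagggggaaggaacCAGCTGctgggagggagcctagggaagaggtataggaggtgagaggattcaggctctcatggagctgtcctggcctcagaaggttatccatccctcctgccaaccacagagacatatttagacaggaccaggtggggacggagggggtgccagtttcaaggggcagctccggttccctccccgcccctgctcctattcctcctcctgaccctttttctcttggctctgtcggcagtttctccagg
Pvalb: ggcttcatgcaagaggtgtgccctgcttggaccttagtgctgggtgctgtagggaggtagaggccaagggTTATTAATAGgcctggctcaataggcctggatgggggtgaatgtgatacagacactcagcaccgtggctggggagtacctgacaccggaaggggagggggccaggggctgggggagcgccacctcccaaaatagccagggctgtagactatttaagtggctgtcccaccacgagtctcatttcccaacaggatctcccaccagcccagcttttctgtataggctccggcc
Hrc: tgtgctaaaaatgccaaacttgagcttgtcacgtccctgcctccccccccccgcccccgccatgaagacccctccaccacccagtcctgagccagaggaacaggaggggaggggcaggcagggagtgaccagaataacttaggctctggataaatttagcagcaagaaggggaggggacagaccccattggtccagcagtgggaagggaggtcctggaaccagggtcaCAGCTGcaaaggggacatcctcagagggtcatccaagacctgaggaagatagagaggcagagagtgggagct

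Values are TPM, transcript abundances, which are scaled by transcript length and within a library, so that genes can be compared with each other in these units. The skeletal muscle markers were abundant in every library, where the 7 genes (Acta1, Ckm and others) summed to between 44252 and 52880 TPM. The fiber type lists differed between libraries. The 10 fast-twitch genes summed to 81896 to 83082 TPM in ground gastrocnemius and 89273 to 92233 in flight gastrocnemius. In the quadriceps their sums were 112772 to 125209 TPM on the ground and 126516 to 130294 after flight, so the exposures did not overlap in either muscle. The 10 slow-twitch genes summed to 1932, 1952 and 2410 TPM in ground gastrocnemius, 1296, 1306 and 1516 in flight gastrocnemius, and 1426, 1612 and 1973 in flight quadriceps. In ground quadriceps they summed to 1039 in mouse M02 against 2378 and 2457 in M03 and M08, so the M02 quadriceps library stands apart. The main results for Atp2a2, Sln and the SERCA2 share are given with and without it, and other results mostly with it alone. That library also had the highest adipocyte marker sum, 503 TPM against 158 to 319 in the others. The quadriceps library of M08 listed 18172 genes above 0 against 20291 to 21265 elsewhere. TPM carries no counting depth, and the precision of a value rests on the spread between 3 mice.

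Transcript levels of the 9 genes ran from 0.339 TPM (Sln) to 15488 TPM (Atp2a1) and kept the same order in every group. Atp2a1 was highest at 11503 ± 636 TPM in ground gastrocnemius (SD, n = 3), followed by Pvalb at 4968 ± 245, Casq1 at 1153 ± 61.6, Hrc at 476 ± 12 and Srl at 357 ± 5.73. Atp2a2 followed at 155 ± 13.0, Pln at 25.4 ± 3.38, Casq2 at 20.2 ± 3.43 and Sln at 1.21 ± 0.144. Neighbours in this order did not overlap in their libraries, other than Pln and Casq2, which overlapped in both gastrocnemius groups and in flight quadriceps. Together the genes held 1.81% to 2.75% of the TPM listed for a library, most of it Atp2a1 and Pvalb. The listed TPM summed to 923295 to 924762 in ground gastrocnemius, 937534 to 946314 in flight gastrocnemius and 952229 to 966638 in the quadriceps.

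**Figure D1:**
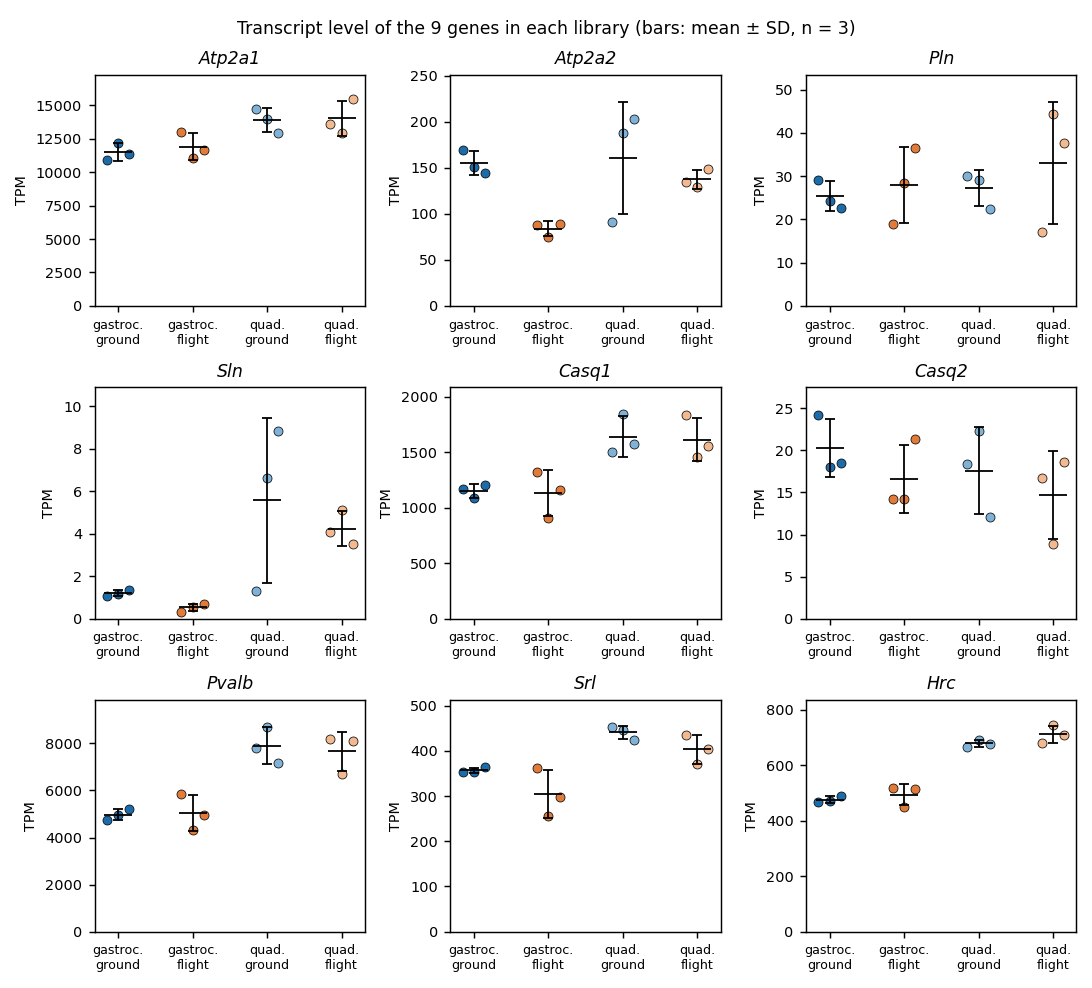
Level of each gene in TPM (vertical axes from 0) in each library, by muscle and exposure; points are libraries and bars the mean ± SD of 3. Flight gastrocnemius lies below ground gastrocnemius for Atp2a2 and Sln, the quadriceps lies above the gastrocnemius for Pvalb, Casq1, Srl and Hrc, and 1 ground quadriceps library (M02) is low for Atp2a2 and Sln.

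The first question was whether flight changed these genes within each muscle. In the gastrocnemius Atp2a2, the slow-fiber pump, fell, and it was 1 of 9 genes called. Its level was 170, 150 and 145 TPM in ground mice M02, M03 and M08 and 88.1, 74.8 and 89.0 TPM in flight mice M11, M12 and M20. Every flight library lay below every ground library. Its log2 fold change was -0.88 ± 0.10 (SE; limma on log2(TPM + 1), adjusted p = 0.0361 over 10481 genes, 95% interval -1.11 to -0.64). Genes were called where the adjusted p was below 0.05 and levels differed by over 1.5-fold, and 0.229% of the 10481 genes were called in this comparison, 12 higher and 12 lower (6 and 12 after libraries were scaled by their median ratio). The direction and size did not depend on any library, with log2 fold changes from -0.92 to -0.80 when each was left out, but the call did: it was kept without flight mouse M11 (adjusted p = 0.024) and missed without any other library (0.0611 to 0.192). It was also missed without the filter on low values (0.155), without the variance trend (0.0804) and with all 12 libraries in 1 fit (0.112).

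The slow-twitch genes moved with Atp2a2 in the gastrocnemius. All 10 had negative log2 fold changes, with a median of -0.55 against 0.02 over all genes tested. Only Myl2 (-1.33) and Myl3 (-0.90), the slow-fiber myosin light chains, were called. The change was unequal over the list, and smallest in Tpm3 (-0.13). Myh7, the slow myosin heavy chain, stood at -0.25 (adjusted p = 0.406). Its mean was 243 TPM on the ground and 204 after flight, where Myl2 had 479 and 190. Per 1000 TPM of the slow-twitch list, a scale added after the values were seen, Atp2a2 stood at 70.4, 77.0 and 74.9 in ground mice and 67.5, 57.7 and 58.7 in flight mice. On that scale flight libraries still lay below ground libraries, but the ratio of the flight mean to the ground mean was 0.827, against 0.542 in TPM. In bulk RNA fewer slow fibers and less Atp2a2 RNA in each fiber cannot be told apart, and the part of fiber content in the change was not tested.

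**Figure D2:**
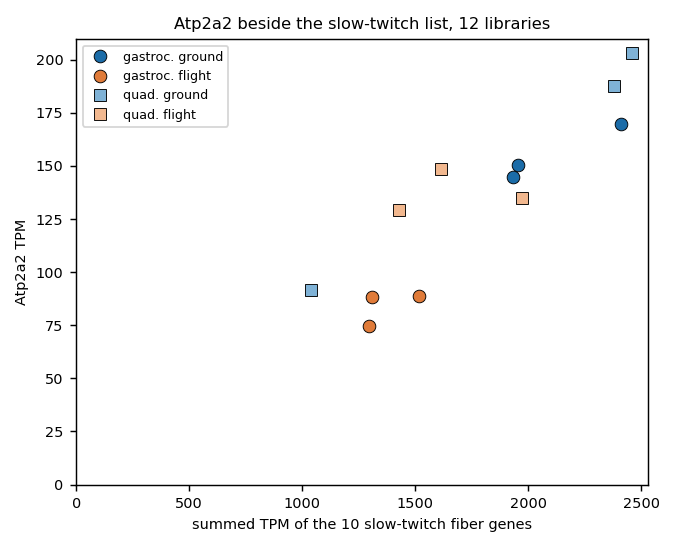
Atp2a2 in TPM (vertical axis) against the summed TPM of the 10 slow-twitch genes (horizontal axis) in each of the 12 libraries, both axes from 0; circles are gastrocnemius and squares quadriceps. The 3 flight gastrocnemius libraries lie at the lower left, at 1296 to 1516 and 74.8 to 89.0 TPM, beside the ground quadriceps library of M02 at 1039 and 91.5 TPM.

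The fast-fiber pump did not pass the test. Atp2a1 was 10936, 12191 and 11382 TPM in ground gastrocnemius and 13026, 11036 and 11645 TPM after flight, overlapping between the groups. Its log2 fold change was 0.05 with a 95% interval of -0.15 to 0.24. Of the 10 fast-twitch genes, 8 had positive and 2 negative log2 fold changes, with a median of 0.14. None was called, and 6 had an unadjusted p under 0.05 by limma, where 15.1% of all genes did. Per 1000 TPM of that list Atp2a1 was 134, 147 and 139 on the ground and 142, 124 and 126 after flight. SERCA2 transcripts, counted as the percent of Atp2a1 plus Atp2a2, were 1.53%, 1.22% and 1.26% in ground mice and 0.672%, 0.673% and 0.759% in flight mice. The share fell by 0.632 percentage points, and the groups did not overlap; the exact two-sided permutation p of 0.1 is the smallest that 3 against 3 allows.

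Of the pump regulators, Sln was the other gene whose gastrocnemius groups did not overlap, which made 2 of 9 genes against 21% of all genes tested. Sln was 1.08, 1.18 and 1.36 TPM in ground mice and 0.339, 0.570 and 0.696 TPM in flight mice. Its log2 fold change of -0.53 missed the threshold (adjusted p = 0.356), and at so low a level it depends on the pseudocount, being -1.08 with 0.1 added in place of 1 (adjusted p = 0.255). No gastrocnemius library exceeded 5 TPM for Sln, which was tested because 3 quadriceps libraries did. Pln, the other regulator, was 29.2, 24.3 and 22.7 TPM on the ground and 19.0, 28.5 and 36.5 TPM after flight, with the groups overlapping and a log2 fold change of 0.09 (interval -0.41 to 0.60).

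The calcium buffers did not pass the test in the gastrocnemius. Casq2, the slow-fiber calsequestrin, was 24.2, 18.1 and 18.4 TPM on the ground and 14.2, 14.3 and 21.3 TPM after flight, a log2 fold change of -0.29 (adjusted p = 0.485). Srl had a log2 fold change of -0.24 (adjusted p = 0.392), with M11 at 362 TPM inside the ground range of 353 to 364 and M12 and M20 below it at 257 and 297 TPM. Casq1, Pvalb and Hrc had log2 fold changes of -0.04, 0.01 and 0.05, with intervals no wider than -0.35 to 0.27. The CASQ2 share, Casq2 as a percent of Casq1 plus Casq2, was 2.03%, 1.64% and 1.505% on the ground and 1.06%, 1.54% and 1.80% after flight (exact permutation p = 0.5). The median log2 fold change of the 9 genes was -0.04 against 0.02 over all genes tested.

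In the quadriceps none of the 9 genes was called, where 0.0286% of all genes were, and no gene's flight libraries were separate from its ground libraries, against 17.4% of all genes. By limma 0 of the 9 genes had an unadjusted p under 0.05, where 10.8% of all genes did. Atp2a2 was 91.5, 187 and 203 TPM in ground mice M02, M03 and M08 and 135, 129 and 149 TPM in flight mice. The flight values lie between the low M02 library and the other ground mice. The log2 fold change was -0.14 (adjusted p = 0.881, interval -0.81 to 0.53), and -0.50 without the M02 library (adjusted p = 0.519). The slow-twitch list was again lowest in that library. Per 1000 TPM of that list, Atp2a2 was 88.04, 78.8 and 82.7 on the ground and 68.3, 90.5 and 92.2 after flight. The SERCA2 share was 0.618%, 1.32% and 1.54% on the ground and 0.980%, 0.988% and 0.951% after flight (exact permutation p = 0.5), and its difference of -0.189 percentage points became -0.461 without the M02 library (exact permutation p = 0.1).

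In the quadriceps Sln was 1.29, 6.62 and 8.82 TPM on the ground, where M02 was low, and 4.09, 5.13 and 3.51 TPM after flight. Its log2 fold change was -0.09 (interval -1.31 to 1.12) with all libraries and -0.73 without M02 (adjusted p = 0.542). Pln was 30.1, 29.2 and 22.5 TPM on the ground and 17.2, 44.3 and 37.6 TPM after flight, the flight mice M12 and M20 lying above the ground range and M11 below it. Atp2a1, Pvalb, Casq1, Srl and Hrc had log2 fold changes between -0.13 and 0.07 and Casq2 one of -0.26, with overlapping groups throughout. The CASQ2 share was 1.21%, 1.19% and 0.760% on the ground and 0.903%, 0.601% and 1.18% after flight (exact permutation p = 0.5).

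**Figure D3:**
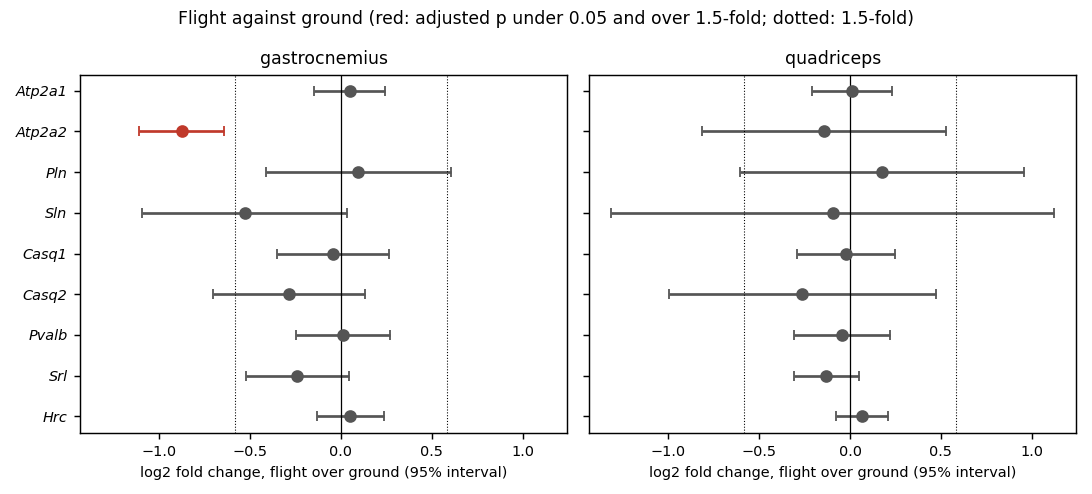
Log2 fold change of flight over ground (horizontal axis, log2(TPM + 1) scale) with its 95% interval for each gene (vertical axis), in the gastrocnemius at left and the quadriceps at right. Atp2a2 in the gastrocnemius, in red at -0.88, is the single value past both thresholds, and the intervals of Sln, Pln, Casq2 and Atp2a2 in the quadriceps are wide.

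Whether the flight change differed between the muscles was asked with an interaction term, fitted to all 12 libraries and blocked by mouse. None of the 9 genes was called, and 0% of all genes were. By limma 534 genes (5.09%) had an unadjusted p under 0.05, Atp2a2 among them: its change was 0.73 log2 units less negative in the quadriceps (unadjusted p = 0.0469, adjusted p = 0.957). Without mouse M02 that difference was 0.31 (adjusted p = 0.894). The other 8 genes had interaction values between -0.05 and 0.43.

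The next question was how the muscles differed in the same mouse. Pvalb, the cytosolic buffer of fast fibers, was higher in the quadriceps in both exposures. In ground mice M02, M03 and M08 it was 4723, 4969 and 5212 TPM in the gastrocnemius and 7798, 8713 and 7152 TPM in the quadriceps, and in flight mice M11, M12 and M20 it was 5827, 4324 and 4943 TPM against 8169, 6691 and 8120 TPM. Every quadriceps library lay above every gastrocnemius library of its exposure. The log2 difference was 0.66 ± 0.08 in ground mice (SE; adjusted p = 0.0066) and 0.61 ± 0.08 in flight mice (adjusted p = 0.00608), called in both. The ground call was missed without M03 (adjusted p = 0.057) and the flight call without M12 (adjusted p = 0.057) or M20 (log2 difference 0.56). In ground mice 3.2% of all genes were called and in flight mice 3.34%.

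The luminal proteins followed with smaller differences. Hrc was 1.32 to 1.66 times as high in the quadriceps as in the gastrocnemius of the same mouse, Casq1 1.29 to 1.70 times and Srl 1.17 to 1.44 times, higher in 6 of 6 mice for each. Their adjusted p passed in both exposures, at 0.0113 and 0.00873 for Hrc, 0.0188 and 0.0137 for Casq1 and 0.036 and 0.0137 for Srl, with log2 differences of 0.30 to 0.53 that stayed under 1.5-fold. In ground mice none of the 3 passed once any ground mouse was left out (0.0619 to 0.147), and in flight mice none passed without M12 (0.0551 to 0.0968). Atp2a1 was 1.05 to 1.34 times as high in the quadriceps, in 6 of 6 mice, and missed the threshold (log2 difference 0.27 and 0.24, adjusted p = 0.0628 and 0.0916). Sln exceeded 5 TPM in quadriceps libraries alone and so entered the test through the muscle where it is high, and it is left out of the counts between muscles. Of the other 8 genes, 4 passed the adjusted p as higher in the quadriceps of ground mice and 4 in flight mice, where 10.8% and 12.4% of the 9617 genes over 5 TPM in both muscles did (10.1% and 11.6% of all genes tested). Every quadriceps library was above every gastrocnemius library for 5 of these 8 genes in ground mice (29.2% of the 9617 and 28.3% of all genes) and 5 in flight mice (25.2% and 24.4%).

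Most genes leaned the same way: the median log2 difference over all genes was 0.12 in ground and 0.11 in flight mice, and after scaling libraries by their median ratio it was 0.03 in both. On that scale the log2 difference of Pvalb was 0.57 and 0.52, under 1.5-fold (adjusted p = 0.0197 and 0.0209), and the differences of Casq1, Srl and Hrc were 0.21 to 0.44, where Hrc passed the adjusted p in both exposures, Srl in flight mice alone and Casq1 in neither. Over all 10481 genes, 322 in ground and 506 in flight mice passed the adjusted p as higher in the quadriceps after scaling, against 1057 and 1213 before. The split of the called genes, 233 higher and 102 lower in ground and 245 and 105 in flight, became 97 and 132, and 135 and 131. The sum of the fast-twitch list was itself higher in the quadriceps, where 8 of its 10 genes had positive log2 differences in each exposure. The other 2, the myosin heavy chains Myh1 and Myh2, were lower there, and 1 of them passed the adjusted p in flight mice. Per 1000 TPM of that list, Casq1 stood at 13.1 to 14.8 in ground mice of both muscles. Pvalb stood at 57.7 to 63.5 in ground gastrocnemius and 62.1 to 69.6 in ground quadriceps. In flight mice Pvalb on that scale was 48.4 to 63.7 in the gastrocnemius and 52.9 to 62.7 in the quadriceps, and over both exposures it was higher in the quadriceps in 4 of 6 mice. Casq1 stood at 10.2 to 14.4 and 11.5 to 14.1 in flight mice. Atp2a1 on that scale was lower in the quadriceps of each of 6 mice, by 21.8 per 1000 TPM on average. Other tissue markers also differed: Schwann cell and nerve genes summed to 136 to 298 TPM in the gastrocnemius and 52.8 to 84.7 TPM in the quadriceps. With M02 included, 4 of 5 adipocyte genes tested were called higher in ground quadriceps. Their part in these differences was not tested.

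Sln and Atp2a2 varied more between mice. Sln was higher in the quadriceps of all 6 mice, 5.04 to 12.1 times in 5 of them and 1.20 times in M02. Its log2 difference was 1.77 in flight mice and 1.33 in ground mice (1.93 without M02), given as a description with no test because of the filter. Atp2a2 was 1.25 to 1.73 times as high in the quadriceps in 5 mice and 0.539 times in M02, a log2 difference of -0.03 in ground mice and 0.71 in flight mice (adjusted p = 0.948 and 0.0725). Without M02 the ground value was 0.40 (adjusted p = 0.0852). Leaving out M02, a ground mouse, changed the flight test only through the variance pooled over all mice (adjusted p = 0.0110). The M02 quadriceps library was itself low for Atp2a2, so that p is not counted as a pass. Per 1000 TPM of the slow-twitch list Atp2a2 was higher in the quadriceps in 6 of 6 mice, by 15.7 on average. The SERCA2 share was higher in the quadriceps in 5 of 6 mice, by 0.05 percentage points on average over the 6 (exact sign-flip p = 0.875), and by 0.242 without M02 (exact p = 0.0625, the smallest that 5 mice allow).

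Casq2 did not pass the test between muscles. It was 0.618 to 1.23 times as high in the quadriceps, above the gastrocnemius in 2 of 6 mice, with log2 differences of -0.22 and -0.20 (adjusted p = 0.475 and 0.526). The CASQ2 share was lower in the quadriceps in 6 of 6 mice, by 0.622 percentage points on average. The exact two-sided sign-flip p of 0.03125 is the smallest that 6 mice allow and became 0.188 when adjusted over the 6 tests of the SERCA2 and CASQ2 shares. Pln was 0.904 to 1.56 times as high in the quadriceps, with log2 differences of 0.09 and 0.18 that did not pass.

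**Figure D4:**
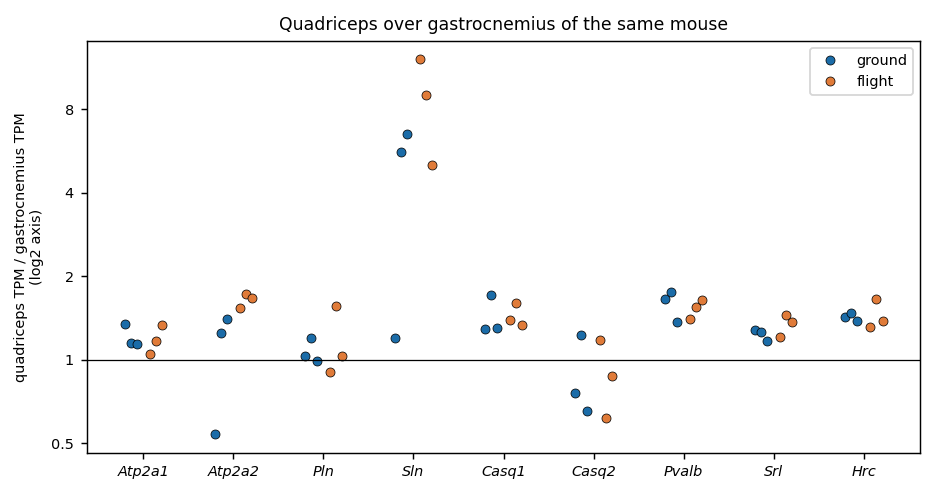
Ratio of quadriceps to gastrocnemius TPM of the same mouse (vertical axis, log2 scaled; the line is equality) for each gene, ground mice in blue and flight mice in orange. Atp2a1, Casq1, Pvalb, Srl and Hrc lie above 1 in 6 of 6 mice, Sln reaches 12.1, and the ground mouse M02 lies at 0.539 for Atp2a2.

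Over the 12 libraries Pearson's r of log2(TPM + 1) between pairs of Atp2a1, Casq1, Pvalb, Srl and Hrc ran from 0.75 (Srl and Hrc) to 0.96 (Casq1 and Pvalb). Sln overlapped that range, at 0.50 with Atp2a1, 0.655 with Srl, 0.74 with Pvalb, 0.77 with Casq1 and 0.81 with Hrc, and stood at 0.73 with Atp2a2, while Casq2 reached at most 0.12 and Pln at most 0.24 with any other member. The libraries share mice and their muscle difference, so these values describe the 12 libraries. Among all genes tested, the patterns nearest to Atp2a2 were those of Myl2 (r = 0.88), Rad1, Myl3, Pxmp4 and Nipa2 (0.85), 2 of them slow myosin light chains. Nearest to Pvalb were Tmem233 (0.98), Ak1, Snrnp27, Myl1 and Mrps15, with the fast light chain Myl1 at 0.97. Nearest to Atp2a1 were Ube2l3 (0.97), Cacna1s, the voltage sensor of the calcium release unit, Gstm2, Akt2 and Pbxip1. Casq1 was nearest to Klhl31 (0.98), Fsd2, Itgb1bp2, Larp1b and Psmd12, Srl to Selenot (0.99), Kpna3, Cox16, Tefm and Impad1, and Hrc to Ncl (0.98), Asph, Zcrb1, Sugt1 and Grsf1. Pln was nearest to Preb (0.94), Mt2, Ifi204, Chka and Ddit4, Sln to Mfn1 (0.95), Slc30a9, Ppp4r2, Rb1cc1 and Dynlt3, and Casq2 to Ddr1 (0.81), Ptdss1, Fgfrl1 and Rcl1.

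The rest of the calcium system was read from 55 other genes in 7 lists, of which 44 were tested. None was called for flight in either muscle. In the gastrocnemius 8 of 44 had an unadjusted p under 0.05, near the share of 15.1% over all genes, and the median log2 fold change was 0.01 against 0.02 over all genes. The largest changes there were in Atp2b4, a plasma membrane calcium pump, at 73.0 ± 7.02 TPM on the ground and 111 ± 17.4 TPM after flight (log2 fold change 0.58, adjusted p = 0.142), in Smdt1, a subunit of the mitochondrial calcium uniporter, at -0.42 (adjusted p = 0.222), and in Calm3, a calmodulin gene, at 0.42 (adjusted p = 0.217). In the quadriceps 5 of 44 had an unadjusted p under 0.05, near the 10.8% over all genes. The largest changes were in Slc8a3, a sodium-calcium exchanger, at 0.33 (adjusted p = 0.347), Orai1, the store-operated channel, at -0.33 (adjusted p = 0.445) and Cacnb1, a subunit of the voltage sensor, at 0.28 (adjusted p = 0.515). Between the muscles Atp2a3, the remaining SERCA pump, is given as levels alone, since it exceeded 5 TPM in gastrocnemius libraries alone: 5.09 ± 0.943 TPM in ground gastrocnemius and 2.82 ± 0.349 in ground quadriceps, and 4.74 ± 0.504 and 3.13 ± 0.671 after flight. Of the other 43 genes, 39 had a positive log2 difference in ground mice and 38 in flight mice, and 17 passed the adjusted p as higher in the quadriceps in each, against 10.8% and 12.4% of genes over 5 TPM in both muscles. After median-ratio scaling 28 and 35 were positive, and 7 and 6 passed, against 322 and 506 of all 10481 genes tested. The median log2 difference over all genes was itself positive, at 0.12 and 0.11 before scaling and 0.03 in both after it. By list, those that passed in ground mice before scaling were 5 of 14 genes of calcium release and 5 of 7 that bind calcium in the lumen of the endoplasmic reticulum. So did 3 of 5 that bind it in the cytosol, 2 of 5 of extrusion at the surface and 2 of 7 of mitochondrial uptake, with 0 of 4 of store-operated entry. The genes of these lists that were called between the muscles are named after their values were seen. Slc8a1, a sodium-calcium exchanger, was called in both exposures (log2 difference 0.80 in ground and 0.74 in flight mice, adjusted p = 0.00751 and 0.0084), Calm3 in ground mice (0.66, adjusted p = 0.00751), and Smdt1 (0.70, adjusted p = 0.00862) and Mrln, which encodes the pump-binding peptide myoregulin (0.75, adjusted p = 0.0135), in flight mice.

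None of the 9 genes had a skipped exon or mutually exclusive exon event in the splicing tables, which listed 1769 and 654 events in the gastrocnemius and 1763 and 653 in the quadriceps. An event that was not listed gives no statement on the splicing of these genes. In place, the genes lie at chr7:126445858-126463108 (Atp2a1), chr5:122453513-122502225 (Atp2a2), chr1:172209894-172219868 (Casq1), chr15:78191114-78206400 (Pvalb) and chr16:4480216-4541816 (Srl) on the reverse strand, and at chr10:53337667-53345987 (Pln), chr9:53850164-53854560 (Sln), chr3:102086415-102146514 (Casq2) and chr7:45335290-45338974 (Hrc) on the forward strand. Atp2a2 and Casq2 each overlap 2 other annotated genes on their own strand. Atp2a2 shared 4.49% of its 31-base words with transcripts of other genes. That share was 0.748% for Atp2a1, 1.16% for Hrc and 0% for the other 6.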

How the data were processed

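Polyadenylated RNA of 12 mouse muscle libraries was sequenced as single-end reads of 50 bases. The authors deposited TPM per gene, made with kallisto 0.46.0 and tximport, and splicing tables made with STAR 2.7.1a on mm10 (GRCm38) and rMATS-turbo, which also hold the authors' own p-values and differences. From the splicing tables the gene names alone were read. Of 36008 identifiers, 35856 had a symbol. Genes with TPM above 5 in at least 1 library (10481) were tested with limma 3.58.1 in R 4.3.3 (lmFit, eBayes with a trend) on log2(TPM + 1), where a fold change understates that of low genes. P-values were two-sided and Benjamini-Hochberg adjusted. Flight and ground libraries of a muscle were compared in a fit of those 6 libraries. Muscles were compared over 12 libraries with mouse as a block, since both muscles came from the same mouse; the deviations of a mouse's muscles correlated with r of -0.119 to 0.333. The authors' DESeq2 1.26.0 takes counts and was not used. The fits were run on simulated data with independent noise in each library and no mouse effect, so the simulation says nothing on the mouse block.

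The 9 genes, the other lists and the tests were chosen with earlier results of these data known. All 9 genes were named, and, from the other calcium lists, the genes called for flight against ground and the 3 largest flight changes with a mean of at least 5 TPM in each muscle. For each of the 9 genes the 5 nearest patterns were named, other than 1 for Casq2 that is not reported here. Alternatives were another pseudocount, no filter, median-ratio scaling, no trend, other samples or blocks, and leaving out each replicate.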

Additional observations from a re-analysis of the deposited data

How the results depend on the processing

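The number of the 9 genes called for flight in the gastrocnemius, 1 (Atp2a2), stayed at 1 with a pseudocount of 0.1 and with median-ratio scaling and became 0 without the filter on low values, without the variance trend and with all 12 libraries in 1 fit, and it ranged from 0 to 1 when each replicate was left out; the cause was not tested. Between the muscles the number called in ground mice, 1, became 0 without the filter and with median-ratio scaling and ranged from 0 to 2 when each mouse was left out, and in flight mice, 2, one of them Sln, which entered through its quadriceps values, it became 0 and 1 and ranged from 0 to 3. No gene of the 9 was called in the quadriceps or for the interaction under any alternative run. The SERCA2 share ranged from -0.461 to 0.00235 percentage points for flight in the quadriceps and from -0.00304 to 0.242 between the muscles when each replicate was left out. The CASQ2 share between the muscles ranged from -0.715 to -0.558, each time at the smallest p that 5 mice allow in an exact test (0.0625). Of 427 other values of single genes under an alternative, 378 kept their direction and side of the threshold, 21 lost and 3 gained a call and 25 changed sign. With median-ratio scaling the flight log2 fold change became -0.0242 for Pvalb in the gastrocnemius and -0.0117 for Atp2a1 in the quadriceps, and Atp2a2 scaled to the slow-twitch list, chosen after seeing the data, stood at -0.27 in the gastrocnemius and 0.0144 in the quadriceps. Leaving out each replicate gave flight ranges of -0.0196 to 0.10 for Atp2a1, -0.11 to 0.34 for Pln, -0.16 to 0.11 for Casq1 and -0.10 to 0.11 for Pvalb in the gastrocnemius. In the quadriceps they were -0.0621 to 0.0677 for Atp2a1, -0.50 to 0.0669 for Atp2a2, -0.0819 to 0.58 for Pln, -0.73 to 0.32 for Sln, -0.12 to 0.0655 for Casq1, -0.50 to 0.0444 for Casq2 and -0.11 to 0.0509 for Pvalb. Between the muscles they were -0.28 to 0.40 for Atp2a2 in ground mice, and -0.0473 to 0.33 for Pln and -0.41 to 0.0177 for Casq2 in flight mice.

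The replicate number of the titles links different mice for flight against ground, and same-numbered libraries did not deviate together (r of -0.143 to 0.111 in the gastrocnemius and -0.18 to -0.0653 in the quadriceps; 2 and 0 of 6 libraries correlated best with their own number). With it as a block, 0 of the 9 genes were called in the gastrocnemius (Atp2a2 adjusted p = 0.0796) and 0 in the quadriceps. Without mouse as a block, 1 and 2 genes were called between the muscles in ground and flight mice, as with it.

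Over all genes, the 24 called for flight in the gastrocnemius became 4 without the filter, 5 without the trend and 0 with the block, and ranged from 1 to 133 when each replicate was left out. The 3 in the quadriceps became 2, 1 and 0, and 1 with median-ratio scaling, and ranged from 1 to 4. The 335 and 350 between the muscles became 77 and 200 without the filter and ranged from 36 to 335 and from 77 to 354. For the interaction the 0 called became 2 without the filter and ranged from 0 to 1. Alternatives planned for splicing events were not run because no event of the 9 genes was listed. TPM holds no depth, so low values such as those of Sln have an unknown counting error. With 3 mice a group nothing says how far the values hold for other mice.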
